A study of Mus musculus with 4 samples.

Results

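The 30 genes described here encode enzymes of cholesterol synthesis, enzymes of fatty acid synthesis, and proteins that control or serve both pathways. They were chosen by gene symbol from the 58735 rows of a table of read counts per gene, and each of the 30 symbols matched a single row. They fall into 18 sterol enzymes, 2 enzymes that supply acetyl-CoA, 6 fatty acid enzymes and 4 regulators or transport proteins. The counts come from RNA sequencing of Jurkat, an established line of human leukaemic T cells, grown with fetal bovine serum. The comparison had 2 libraries in each group, wild-type cells and cells labelled as MATR3 knockout by CRISPR-Cas9, with no other treatment. MATR3 is the gene of matrin 3, which binds RNA and sits in the nuclear matrix. The labels do not say whether the knockout was 1 clone or a pool, nor whether each library had its own culture, so the spread that the p-values rest on may be only technical.

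Cholesterol is built from acetyl-CoA through mevalonate, isoprenoid diphosphates, squalene and lanosterol, and fatty acids are built from the same acetyl-CoA through malonyl-CoA. Genes of both pathways are classical targets of the sterol regulatory element-binding proteins, membrane-bound transcription factors encoded by SREBF1 and SREBF2. When cell sterols are low these factors are carried to the Golgi by SCAP and released by proteolysis, and when sterols are high INSIG proteins hold them in the endoplasmic reticulum. SREBF2 products act mainly on sterol genes and a form of the SREBF1 product mainly on fatty acid genes. Dividing lymphocytes use both pathways to make membrane.

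Facts of the libraries as a whole bear on every value below. Total counts ranged from 15008554 to 17477643. The tested MATR3 row held 19 and 9 wild-type reads against 42 and 61, but nearly all of its span lies inside a second MATR3 row on the same strand, and shared reads could be missing from both, so it does not check the label. Directions below therefore compare the libraries labelled knockout with wild-type. By edgeR's quasi-likelihood test at an adjusted p of 0.05, 10088 of 15294 genes (66.0%) were called, 33.7% as higher and 32.3% as lower. The labelled T cell type was checked against 14 T cell markers, of which 13 fell, with a summed level of 3660 and 3406 CPM (counts per 1000000 reads of tested genes, after scaling between libraries) in wild-type, against 1478 and 1440 CPM. Of 21 myeloid markers 18 could be tested, 16 rose and CTSG fell, and their summed level went from 577 and 571 to 6301 and 6177 CPM. MPO was the highest of them in the libraries labelled knockout, at 4972 and 4867 CPM. In wild-type CTSG was the highest, at 408 and 393 CPM. ELANE, CSF3R, CD68 and S100A8 had 0 reads in wild-type, and S100A8 had 0 in all 4 libraries. Mitochondrial genes took 4.92% to 5.31% of the wild-type counts and 9.33% to 9.49% of the others. The part of these shifts in the results below was not tested, and in bulk samples fewer cells of a type and less RNA per cell cannot be told apart.

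The sterol enzymes were lower as a group, while the fatty acid enzymes included the largest rise of the 30 genes. Of 18 sterol enzymes 15 fell and 0 rose, against 32.3% of all tested genes called lower. Of 6 fatty acid enzymes FASN and ELOVL6 rose, ACACA and FADS2 fell, and SCD and FADS1 did not pass the test, so that 2 of 6 in each direction is near the 33.7% higher and 32.3% lower of all tested genes. All 30 genes passed the filter on low counts, 19 fell and 5 rose. The 2 groups of libraries did not overlap for 28 of them, 21 lower and 7 higher, against 40.4% and 41.6% of all tested genes. The median log2 fold change was -0.74 over the sterol enzymes and -0.048 over the fatty acid enzymes, beside 0.02 over all genes tested. For the 0 sterol enzymes that rose by edgeR, the count was also 0 at an unadjusted p under 0.05, with DESeq2 and with limma voom.

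**Figure D1:**
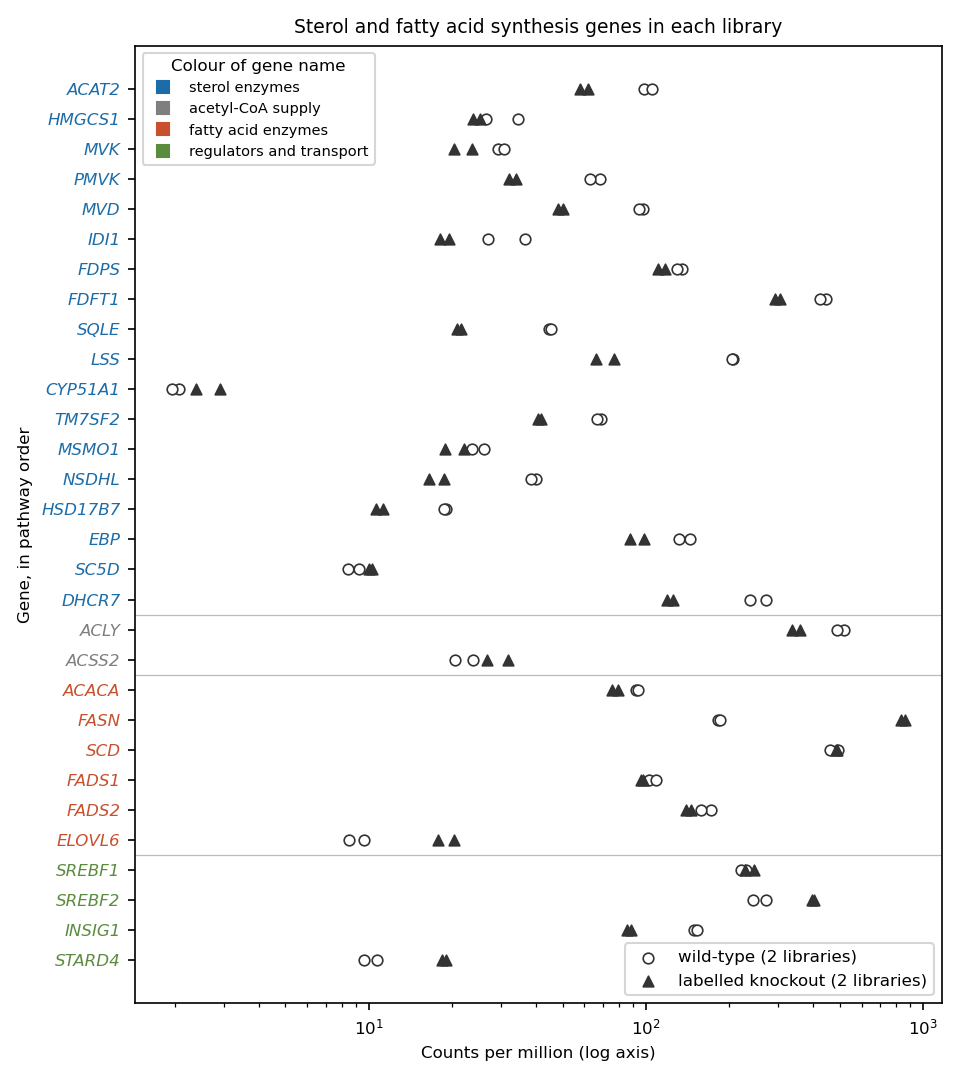
Level of each of the 30 genes in each of the 4 libraries, in CPM on a log axis, with wild-type libraries as open circles and libraries labelled knockout as filled triangles. The triangles of most sterol enzymes lie to the left of the circles, while those of FASN (863 and 831 CPM) lie far to the right of the wild-type values (182 and 185 CPM).

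The enzymes that carry acetyl-CoA to farnesyl diphosphate, the branch point to squalene, were all lower, and 7 of 7 fell, with a median log2 fold change of -0.76. PMVK, which adds the second phosphate to mevalonate (ENSG00000163344, chromosome 1, 154924734 to 154936991), stood at 68.3 and 62.7 CPM in wild-type and at 31.9 and 33.8 CPM in the libraries labelled knockout. MVD, which makes isopentenyl diphosphate, stood at 97.6 and 94.6 CPM against 50.1 and 48.1 CPM. ACAT2, the cytosolic thiolase that joins acetyl-CoA units, stood at 98.5 and 105 CPM against 57.8 and 61.6 CPM. For each of these 3 genes every library labelled knockout was below both wild-type libraries. Their log2 fold changes were -0.99 (SE 0.097) for PMVK, -0.97 (SE 0.084) for MVD and -0.77 (SE 0.082) for ACAT2.

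The remaining genes of this stretch fell less or were less even between replicates. IDI1, the isomerase of isopentenyl diphosphate, stood at 27.0 and 36.7 CPM in wild-type and at 18.01 and 19.4 CPM in the libraries labelled knockout. HMGCS1, which forms hydroxymethylglutaryl-CoA, stood at 26.5 and 34.6 CPM against 23.7 and 25.2 CPM. Both were higher in wild-type replicate 2 than in replicate 1, by a factor of 1.36 for IDI1 and 1.31 for HMGCS1, whereas this factor ranged from 0.862 to 1.13 over the other 28 genes. The fall of IDI1 (log2 fold change -0.76, SE 0.137) remained past the threshold without any of the 4 libraries in turn. The fall of HMGCS1 was small (log2 fold change -0.32, SE 0.130, adjusted p = 0.0271, edgeR quasi-likelihood test). Without wild-type replicate 2 the log2 fold change shrank to -0.13 (adjusted p = 0.363). Without replicate 1 or replicate 2 labelled knockout it was -0.28 and -0.36, nearly as large as or larger than with all libraries, but the call was lost (adjusted p = 0.215 and 0.109, edgeR quasi-likelihood test). The call was also lost with the DESeq2 Wald test (log2 fold change -0.32, adjusted p = 0.131) and with no expression filter (-0.31, adjusted p = 0.0966).

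MVK, the mevalonate kinase gene, stood at 29.2 and 30.8 CPM in wild-type and at 20.3 and 23.5 CPM in the libraries labelled knockout, a log2 fold change of -0.45 (SE 0.130). FDPS, the farnesyl diphosphate synthase gene, stood at 135 and 130 CPM against 117 and 110 CPM, a log2 fold change of -0.22 (SE 0.075) and the smallest of the 15 falls. The groups did not overlap for either gene. Without replicate 1 labelled knockout MVK was at -0.35 (adjusted p = 0.110) and FDPS at -0.27 (adjusted p = 0.0753), and without replicate 2 labelled knockout FDPS was at -0.18 (adjusted p = 0.2504, edgeR quasi-likelihood test). Both genes kept their direction in these fits with 1 library fewer, with the call lost.

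The 4 falls of at least 2-fold among the sterol enzymes were in LSS, NSDHL, SQLE and DHCR7, all acting after farnesyl diphosphate. PMVK and MVD, which act before it, only just missed that cut, at 1.99 and 1.96 times higher in wild-type. LSS, the cyclase that makes lanosterol (ENSG00000160285, chromosome 21, 46188141 to 46228824), stood at 207 and 204 CPM in wild-type and at 76.9 and 66.1 CPM in the libraries labelled knockout. Its level was 2.87 times higher in wild-type (log2 fold change -1.52, SE 0.078, adjusted p = 1.3e-29, edgeR quasi-likelihood test). SQLE, the squalene epoxidase gene (ENSG00000104549, chromosome 8, 124998497 to 125022283), stood at 44.8 and 45.5 CPM against 20.8 and 21.4 CPM. The wild-type libraries nearly coincided for both genes, and both libraries labelled knockout were far below them.

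NSDHL, a dehydrogenase that takes part in removing methyl groups from the sterol ring (ENSG00000147383, chromosome X, 152830967 to 152869729), stood at 39.95 and 38.4 CPM in wild-type and at 16.5 and 18.6 CPM in the libraries labelled knockout. DHCR7, the reductase that forms cholesterol from its last precursor (ENSG00000172893, chromosome 11, 71428193 to 71452868), stood at 271 and 237 CPM against 125 and 119 CPM. Neither gene overlapped between the groups. The log2 fold changes were -1.16 (SE 0.127) for NSDHL, -1.09 (SE 0.118) for SQLE and -1.06 (SE 0.074) for DHCR7.

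FDFT1, the squalene synthase gene, was the most abundant sterol enzyme per gene length, at 83.7 RPKM (CPM per kilobase of the authors' gene length) in wild-type and 57.4 RPKM in the libraries labelled knockout. It stood at 445 and 425 CPM against 305 and 292 CPM, a log2 fold change of -0.54 (SE 0.070). TM7SF2, a sterol reductase, HSD17B7, a ketoreductase, and EBP, a sterol isomerase, had log2 fold changes of -0.71, -0.78 and -0.57, with no overlap between the groups. The 11 enzymes from squalene synthase onward thus held 8 falls, with a median log2 fold change of -0.71, close to the -0.76 of the 7 enzymes before it.

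The 3 sterol enzymes that did not pass the test had the fewest reads or small differences. MSMO1, a methylsterol oxidase, stood at 23.5 and 25.9 CPM in wild-type and at 22.1 and 18.8 CPM in the libraries labelled knockout (log2 fold change -0.27, 95% interval -0.55 to 0.0013). SC5D, a sterol desaturase, stood at 8.44 and 9.23 CPM against 10.3 and 9.98 CPM (log2 fold change 0.20, 95% interval -0.17 to 0.57). CYP51A1, the lanosterol demethylase gene, had 36 and 31 wild-type reads against 35 and 43 (log2 fold change 0.40, 95% interval -0.27 to 1.06). The interval of MSMO1 leaves room for a fall of the size seen in MVK, and it was called as lower without wild-type replicate 1 (adjusted p = 0.0376, edgeR quasi-likelihood test). A further row of the table, AC000120.2, spans 99.96% of the CYP51A1 row on the same strand and holds 0 or 1 read per library, so shared reads could have been left out of both rows.

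**Figure D2:**
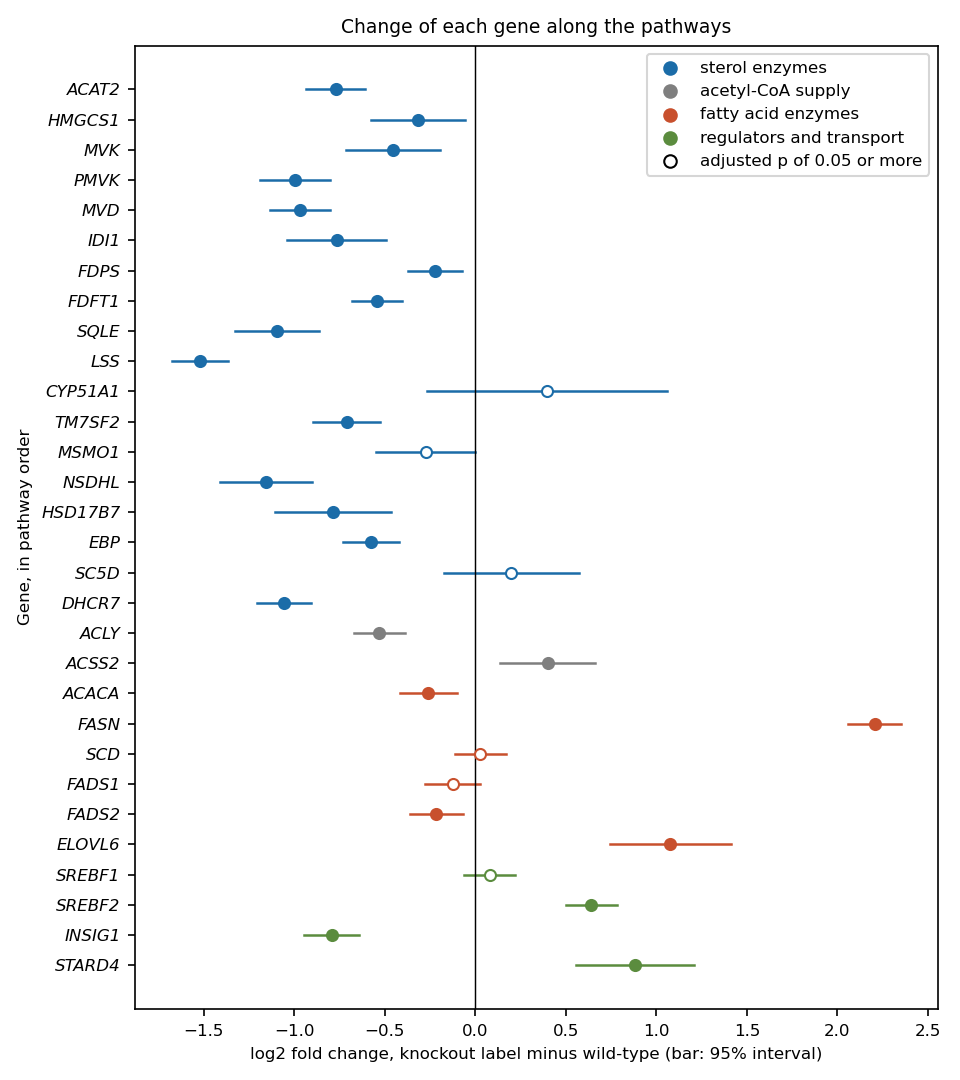
Log2 fold change of each gene (libraries labelled knockout minus wild-type) with its 95% interval, in pathway order, where colours mark the 4 groups of genes and open points did not pass an adjusted p of 0.05. Filled points of the sterol enzymes all lie below 0, from -1.52 for LSS to -0.22 for FDPS, whereas the fatty acid enzymes run from -0.26 for ACACA to 2.21 for FASN.

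Acetyl-CoA for both pathways comes from ACLY, which splits citrate, and from ACSS2, which activates acetate. The genes went opposite ways. ACLY stood at 519 and 490 CPM in wild-type and at 361 and 338 CPM in the libraries labelled knockout (log2 fold change -0.53, SE 0.070). ACSS2 stood at 23.8 and 20.5 CPM against 26.6 and 31.8 CPM (log2 fold change 0.40, SE 0.132, adjusted p = 0.00617, edgeR quasi-likelihood test). The groups did not overlap for either gene, but the replicates of ACSS2 lay far apart. Its call was lost, with the direction kept, without wild-type replicate 2 (log2 fold change 0.28, adjusted p = 0.0584), without replicate 2 labelled knockout (0.27, adjusted p = 0.258) and with the DESeq2 Wald test (0.39, adjusted p = 0.0652).

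FASN, the fatty acid synthase that builds palmitate from malonyl-CoA (ENSG00000169710, chromosome 17, 82078333 to 82098332), had 3176 and 2943 wild-type reads against 12651 and 12328. These were 182 and 185 CPM against 863 and 831 CPM. The level was 4.61 times higher in the libraries labelled knockout (log2 fold change 2.21, SE 0.073, adjusted p = 1.84e-41, edgeR quasi-likelihood test). Each pair of replicates was close, and the groups were far apart. Per length FASN went from 19.6 to 90.5 RPKM, beside 89.2 and 91.0 RPKM for SCD. FASN made up 17.3% and 18.2% of the reads of the 6 fatty acid enzymes in wild-type, against 51.0% and 50.4%.

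ELOVL6, which elongates palmitate (ENSG00000170522, chromosome 4, 110045846 to 110199199), was the other fatty acid enzyme that rose. It stood at 8.50 and 9.61 CPM in wild-type and at 17.8 and 20.4 CPM in the libraries labelled knockout, 2.11 times higher (log2 fold change 1.08, SE 0.167). The rises of FASN and ELOVL6 remained past the threshold without any of the 4 libraries in turn. Per length ELOVL6 was the least abundant of the 6, at 1.24 RPKM in wild-type and 2.62 RPKM in the others.

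SCD, the desaturase that makes oleate, was abundant in all 4 libraries, at 493 and 463 CPM in wild-type, against 489 and 487 CPM. The groups overlapped, and the 95% interval of its log2 fold change of 0.03 ran from -0.11 to 0.17. The direction turned without wild-type replicate 2 (log2 fold change -0.030) and with no composition factor in the scaling (-0.018). Without wild-type replicate 1 SCD was called as higher (log2 fold change 0.09, adjusted p = 0.0498, edgeR quasi-likelihood test).

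ACACA, the carboxylase that commits acetyl-CoA to fatty acid synthesis, stood at 92.0 and 93.5 CPM in wild-type and at 79.4 and 75.7 CPM in the libraries labelled knockout, a log2 fold change of -0.26 (SE 0.079). FADS2, a desaturase of polyunsaturated fatty acids, stood at 172 and 158 CPM against 145 and 139 CPM, a log2 fold change of -0.22 (SE 0.073). Neither gene overlapped between the groups, and neither difference reached 1.5-fold. FADS1, the partner desaturase, stood at 103 and 108 CPM against 97.4 and 96.3 CPM and did not pass the test (log2 fold change -0.13, 95% interval -0.28 to 0.028), though it did with no composition factor in the scaling (adjusted p = 0.0374). Without replicate 1 labelled knockout ACACA was at -0.29 (adjusted p = 0.0513) and FADS2 at -0.25 (adjusted p = 0.0985), both larger than with all libraries. Without replicate 2 labelled knockout they were at -0.22 (adjusted p = 0.155) and -0.18 (adjusted p = 0.244, edgeR quasi-likelihood test). With no expression filter FADS2 was at -0.21 (adjusted p = 0.0583). The FADS1 row lies wholly inside the FADS2 row on the opposite strand, and FADS2 also overlaps FEN1, a nuclease gene of DNA replication, on the same strand, so without a known strand setting the split of reads among them is uncertain.

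Set side by side, the branch means moved apart in both libraries labelled knockout. The mean log2 CPM of the 18 sterol enzymes was 5.69 and 5.71 for wild-type libraries, against 5.05 and 5.06 for those labelled knockout. The mean of the 6 fatty acid enzymes was 6.70 and 6.71 against 7.16 and 7.15. The sterol mean minus the fatty acid mean was thus -1.01 and -1.001 for wild-type against -2.11 and -2.10 for the others, a change of -1.10, beside a pooled SD of 0.0064 between libraries of a group. In reads, there were 1.67 sterol enzyme reads per fatty acid enzyme read in both wild-type libraries, against 0.619 and 0.613. The sum over all 30 genes moved little, from 0.400% and 0.398% of the counts to 0.379% and 0.372%.

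FASN carried most of the rise in the fatty acid mean. Without it, the mean of the other 5 fatty acid enzymes went from 6.53 and 6.55 to 6.64 and 6.65 log2 CPM, a change of 0.10, beside 0.45 with FASN and -0.64 for the sterol enzymes. Among these 5 only ELOVL6 rose, by 1.08 on the log2 scale. SCD was at 0.03, and FADS1, FADS2 and ACACA were at -0.13, -0.22 and -0.26. Of the sterol enzymes 10 fell at least 1.5-fold, against 20.8% of all tested genes. Of the fatty acid enzymes 2 rose at least 1.5-fold, against 24.5% of all tested genes. No p is given for the difference between the branches, since genes are not replicates.

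**Figure D3:**
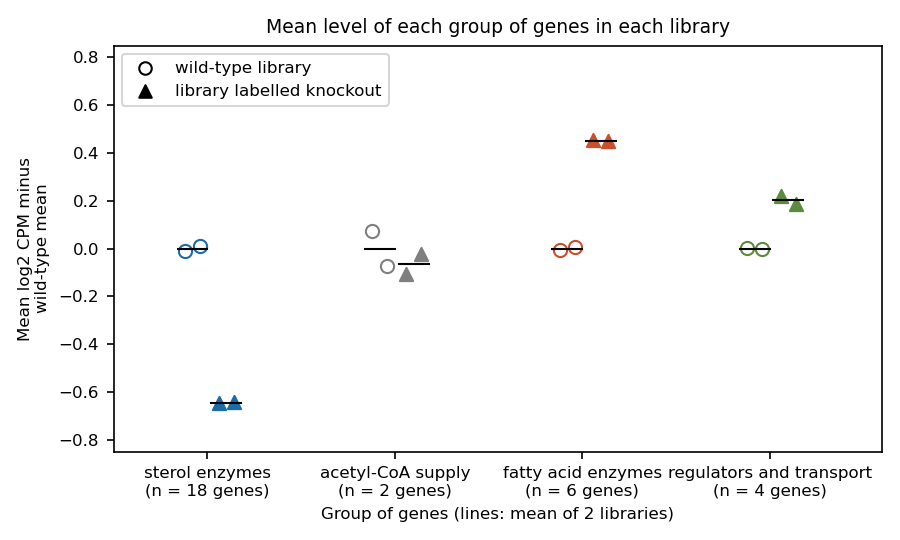
Mean log2 CPM of each group of genes in each library, as the difference from that group's wild-type mean, with open circles for wild-type libraries, triangles for libraries labelled knockout and lines for group means. The sterol enzymes drop by 0.64, the fatty acid enzymes stand 0.45 higher, and the acetyl-CoA supply genes overlap between the groups.

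The regulators did not move with the sterol enzymes as a block. SREBF2, the regulator that acts mainly on sterol genes (ENSG00000198911, chromosome 22, 41833079 to 41907308), stood at 271 and 244 CPM in wild-type and at 404 and 399 CPM in the libraries labelled knockout. It was 1.56 times higher there (log2 fold change 0.64, SE 0.071), and the groups did not overlap. SREBF1, its relative, stood at 229 and 219 CPM against 246 and 229 CPM and did not pass the test. The SREBF1 groups overlapped, with a log2 fold change of 0.08 and a 95% interval from -0.060 to 0.22, and it was called as higher without wild-type replicate 1 (adjusted p = 0.0265, edgeR quasi-likelihood test). These values are of messenger RNA and do not measure the cleaved, active proteins. The table counts whole genes, so the SREBF1 isoforms are not separated.

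INSIG1, which retains the SREBF products in the endoplasmic reticulum and is itself a target of them, moved with the sterol enzymes (ENSG00000186480, chromosome 7, 155297776 to 155310235). It stood at 149 and 153 CPM in wild-type and at 85.5 and 88.3 CPM in the libraries labelled knockout, a log2 fold change of -0.79 (SE 0.076). STARD4, a soluble cholesterol carrier, went the other way, from 9.59 and 10.7 CPM to 19.0 and 18.4 CPM, a log2 fold change of 0.88 (SE 0.164). Neither gene overlapped between the groups, and both calls remained without any of the 4 libraries in turn.

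A further 4 lists of lipid genes, which do not include the 30, were read from the same fit. Of 12 genes for processing or degradation of the SREBF products, 4 rose and 4 fell (median log2 fold change 0.11), counts near the 33.7% higher and 32.3% lower of all tested genes. ERLIN1, part of a complex of the endoplasmic reticulum membrane, MBTPS2, a protease that releases the factors, and SCAP, their escort, had log2 fold changes of 0.68, 0.54 and 0.47. SPRING1 (C12orf49 in the table), needed for SCAP function, and TMEM97, a sterol-responsive membrane protein, had log2 fold changes of -0.95 and -0.58. The largest values on both sides were thus smaller than those of LSS and FASN.

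Of 13 other genes of sterol and isoprenoid synthesis or its electron supply, 6 fell and 3 rose (median log2 fold change -0.045), beside 32.3% lower and 33.7% higher over all tested genes. CYB5A, the cytochrome that passes electrons to sterol and fatty acid oxidases, stood at 40.2 and 42.3 CPM in wild-type and at 12.4 and 12.3 CPM in the libraries labelled knockout. It was 3.34 times higher in wild-type (log2 fold change -1.74, SE 0.133). CYB5R3, its reductase, and ERG28, a scaffold of the sterol demethylation enzymes, had log2 fold changes of -0.82 and -0.52. NUS1 and GGPS1, which serve the dolichol and geranylgeranyl arms, and ACAT1, the mitochondrial thiolase, had log2 fold changes of 0.56, 0.55 and 0.28.

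Of 17 genes of cholesterol transport, esterification and the liver X receptors, 16 could be tested, 9 rose and 5 fell (median log2 fold change 0.33), beside 33.7% higher and 32.3% lower over all tested genes. TSPO, an outer mitochondrial membrane protein that binds cholesterol, stood at 0.918 and 0.879 CPM in wild-type and at 137 and 138 CPM in the libraries labelled knockout. ABCA1, the cholesterol exporter, had 1 and 0 wild-type reads against 84 and 72, a ratio of 176 with a 95% exact conditional interval of 31.2 to 7011 that covers counting error only. MYLIP, a ubiquitin ligase for lipoprotein receptors, stood at 1.78 and 1.32 CPM against 17.1 and 18.6 CPM. These 3 genes had at most 31 reads in a wild-type library. They rose in the libraries with raised myeloid markers, as did every gene called higher, and a link was not tested. LIPA, the lysosomal esterase, NPC2, a lysosomal cholesterol carrier, and NR1H3, a liver X receptor, had log2 fold changes of -0.61, -0.48 and -0.48.

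Of 34 other fatty acid genes 31 could be tested, 9 rose and 11 fell (median log2 fold change -0.18), near the 33.7% higher and 32.3% lower of all tested genes. ME1, the malic enzyme that supplies NADPH, had 2 and 1 wild-type reads against 265 and 256, a ratio of 196 with a 95% exact conditional interval of 66.8 to 955 that covers counting error only. ACSL5, an acyl-CoA synthetase, had 4 and 6 reads against 309 and 335. ELOVL2, an elongase, rose by 1.73 on the log2 scale, from a mean of 0.627 to 2.10 CPM. HACD1, a dehydratase of the elongation cycle, ELOVL3, an elongase, and ACSL6, an acyl-CoA synthetase, had log2 fold changes of -1.63, -1.51 and -1.38. Elongases and acyl-CoA synthetases were thus found on both sides.

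**Figure D4:**
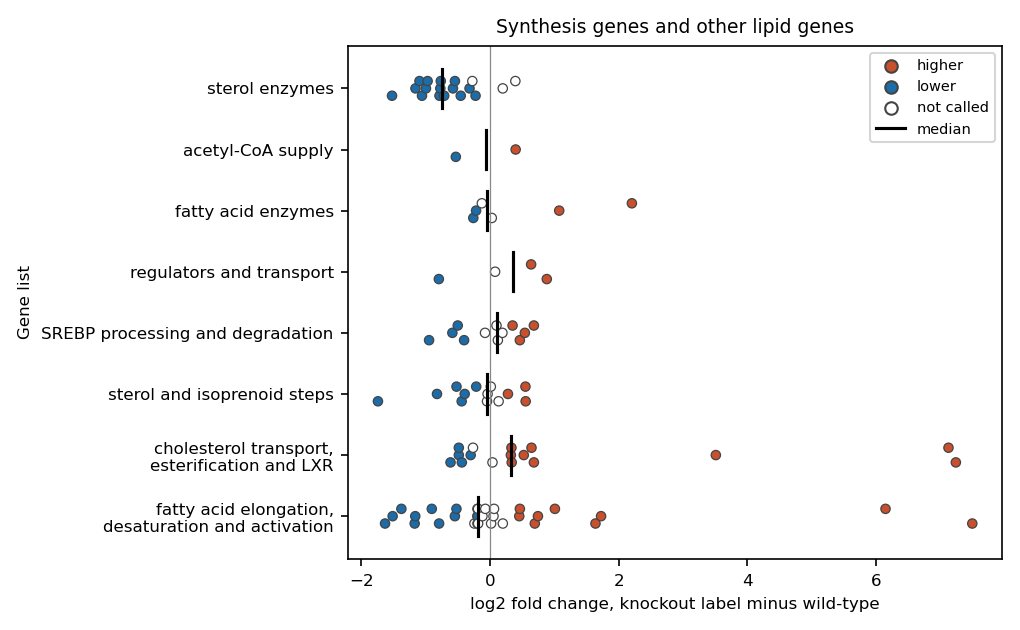
Log2 fold change of every tested gene in the 4 groups of synthesis genes and in 4 further lists of lipid genes, with vertical bars for medians and colours for the call. The sterol enzymes hold 15 lower and 0 higher genes, whereas each of the 4 further lists holds calls in both directions.

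The chromosomal surroundings of the 30 genes were compared with the genes themselves, using the 10 tested genes on each side where the chromosome had them. Neighbour medians of the log2 fold change ran from -0.84 at NSDHL to 0.75 at HMGCS1. Around NSDHL 14 of 20 neighbours fell, and around LSS 10 of 20 fell with a median of -0.44, beside 32.3% lower over all tested genes. Both genes were lower together with their surroundings, but LSS, at -1.52, fell much further than its neighbours. NSDHL was at -1.16. Over all tested genes 33.7% were called higher. SQLE and HMGCS1 fell among neighbours with medians of 0.41 and 0.75, that is, against their surroundings. For FASN, whose neighbours had a median of 0.11 with 6 higher and 8 lower, the surroundings did not move with the gene. ELOVL6 and STARD4 lay among neighbours with medians of 0.45 and 0.51. Of the 18 sterol enzymes 17 stood below their neighbours' median.

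**Figure D5:**
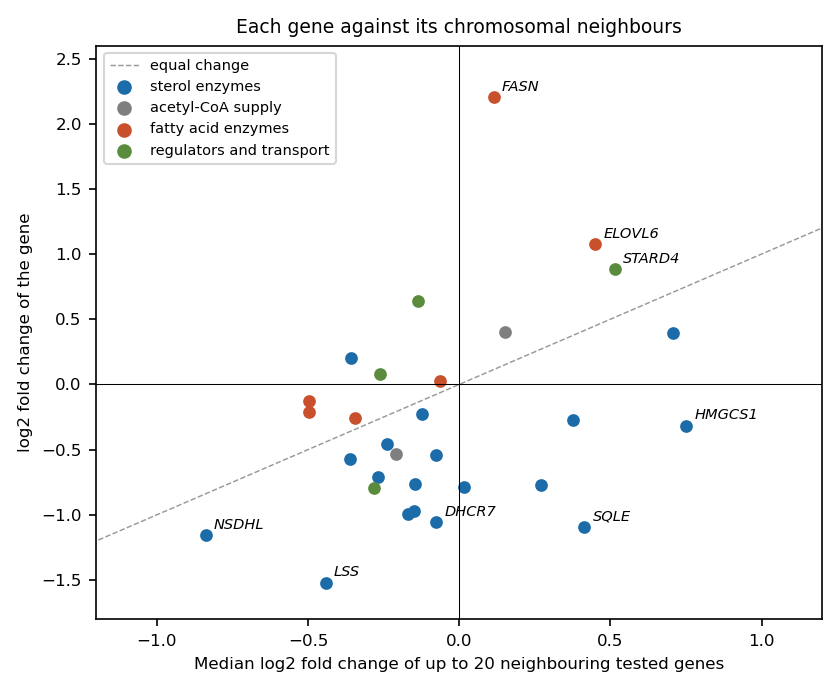
Log2 fold change of each of the 30 genes (vertical axis) against the median of up to 20 neighbouring tested genes (horizontal axis), with a dashed line for equal change and colours for the 4 groups of genes. FASN stands at 2.21 over a neighbour median of 0.11, and NSDHL lies nearest the dashed line among the genes that fell at least 2-fold.

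Overlapping rows limit some of these counts. Of the 30 genes, 20 overlapped another row of the table, 8 of them on the same strand. DHCR7 overlapped an antisense row, AP002387.1, that had 310 and 224 wild-type reads against 75 and 73, so it was lower together with DHCR7. ACAT2 shared 558 bases with TCP1, a chaperonin gene on the opposite strand with 6764 and 6463 wild-type reads against 4722 and 4742. MVK overlapped MMAB on the opposite strand, with 792 and 677 reads against 367 and 332. FEN1, on the strand of FADS2, had 2956 and 2866 reads against 1196 and 1125. GGT7, opposite ACSS2, had 546 and 529 reads against 337 and 309, whereas ACSS2 rose. How reads were split between such rows was not tested. Rows named as copies of FDPS, CYP51A1, HSD17B7, SCD and FADS2 held few reads, with at most 50 over all 4 libraries, for the copies of HSD17B7, against 949 for HSD17B7 itself. CYP51A1 had 26 reads in its copies against 145 in its own row, so its level is the least certain of the sterol enzymes.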

How the data were processed

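RNA sequencing of 4 Jurkat libraries gave 1 deposited table of raw read counts per gene, which the authors left without normalization, per the file headers and values. The submitters' processing notes name featureCounts 1.5.0-p3, HISAT2 2.0.5 and CASAVA 1.8. The strand setting, the handling of multi-mapping reads and the build were not given in the sources used here. Although the organism is labelled as mouse, line and identifiers are human, and the table was read as human. Coordinates and gene lengths are the deposited table's. The 30 genes and all lists were chosen with earlier results of these data known.

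Counts were tested with edgeR 4.0.16 (R 4.3.3), with TMM scaling, the default expression filter (10 counts minimum, 15 in total), a two-sided quasi-likelihood test and Benjamini-Hochberg adjustment over 15294 genes at 0.05. CPM values use the summed counts of those genes and the TMM factors (0.978 to 1.04). Standard errors are of the log2 fold change, and 95% intervals use the test's degrees of freedom. Replicates differed by more than sampling noise (mean chi-square of 5.83 per gene in wild-type and 2.21 in the other group), so each library counted as 1 replicate. The test was first checked on simulated data with few changed genes, unlike the real data, so scaling under wide change was not checked. Named genes were all 30, MATR3 and up to 3 called genes per direction in each further list. A gene that this rule takes is not reported here. Genes named for overlaps, and marker genes, were named after their values were seen. Alternatives were other scalings, DESeq2 1.42.0, limma 3.58.1 voom, other filters and thresholds, a block on replicate number and each library left out. When 1 library of a group remains, it is assumed to vary like the other group. Promoter sequences and their motifs were not analysed here.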

Additional observations from a re-analysis of the deposited data

How the results depend on the processing

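At depths of 15008554 to 17477643 counts, CYP51A1 had 31 to 43 reads per library and a 95% interval of -0.27 to 1.06. The interval does not reach the sterol median of -0.74 but holds a small fall. It covers only the reads left in the CYP51A1 row, from which shared reads could be missing, so it does not bound the change of the whole transcript. Over 13 alternatives for each of the 30 genes, 368 of 390 values kept their direction and their side of the threshold. HMGCS1, MVK, FDPS, ACACA, FADS2 and ACSS2 lost the call in 16 values with the direction kept, and MSMO1, SCD, FADS1 and SREBF1 gained it in 4. Only SCD turned direction, at -0.018 with no composition factor and -0.030 without wild-type replicate 2, and it stood at 0.094 without wild-type replicate 1. No scaling moved the median of all genes by more than 0.1 on the log2 scale, the furthest being -0.030 with no composition factor and 0.053 with upper-quartile scaling, beside 0.017 as reported.

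Requiring 1.5-fold left 15 of the 30 genes called, 11 lower, and 2 fatty acid enzymes. At that cut 6927 of all 15294 tested genes were called, 24.5% as higher and 20.8% as lower. The number called over all genes also changed with each library left out, so the counts that follow are not particular to the 30 genes. Leaving out each library gave 2 to 5 fatty acid enzymes called, 12 to 16 sterol enzymes, 19 to 27 of the 30 genes and 14 to 20 lower. The sterol median (main -0.74) was -0.70 with upper-quartile scaling, -0.79 with no composition factor, -0.72 with protein-coding genes only, and -0.73 to -0.70 without single libraries. The fatty acid median (main -0.048) was -0.040 with DESeq2 size factors, -0.011 with upper-quartile scaling, -0.096 with no composition factor, -0.056 with the DESeq2 Wald test, -0.040 with 1 CPM in at least 2 libraries, -0.035 with protein-coding genes only, and -0.067 to -0.019 without single libraries. The sterol minus fatty acid median (main -0.69) was -0.68 with limma voom and -0.69 to -0.63 without single libraries. The cause of these shifts was not tested. With ACLY, ACSS2 and SREBF1 counted with the fatty acid branch and SREBF2, INSIG1 and STARD4 with the sterol branch, the medians were 0.029 and -0.71 and their difference -0.74. Without FASN, chosen after the data were seen, the fatty acid median was -0.13 and the difference -0.61.

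With a replicate block, 10072 genes were called in place of 10088, 24 of the 30 genes, 15 sterol enzymes and 4 fatty acid enzymes. The labels give no shared source for a number, and deviations of same-numbered libraries correlated at 0.026, so the libraries were taken to share only a number.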
